A study of Mus musculus with 8 samples.

Results

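Collagens are the most abundant proteins of the extracellular matrix, and the deposited tables list 42 genes of this family among 17264 genes. They were chosen by name alone, as every gene symbol made of Col, a type number, the letter a and a chain number, with no threshold on a measured value, after earlier results of these data were known. By the assembly that their products are known to form, 11 are fibrillar collagens, 6 are the chains of basement membrane type IV, and 25 are other collagens. The last group holds 6 chains of beaded filament type VI, 8 fibril-associated (FACIT) chains, 2 multiplexins, 3 short-chain network chains, 3 transmembrane collagens, and 3 anchoring fibril and other collagens. All 42 were measured by RNA-seq and by Ribo-seq, which sequences the fragments of mRNA covered by ribosomes, in inguinal white adipose tissue (iWAT), the subcutaneous fat of the groin.

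The tissue came from male C57BL/6 mice, 9 weeks old, that had been singly housed at 4 °C for 7 days. The Y1cKO mice carried Ythdf1 flox/flox alleles, with loxP sites around exon 4, together with Adipoq-Cre, which recombines the alleles in adipocytes. The Y1CTL mice carried the same floxed alleles without Cre, so that no mouse had unmodified Ythdf1 and other cell types of the fat pad kept the gene in both genotypes. Ythdf1 encodes a cytoplasmic protein that binds N6-methyladenosine in mRNA. Each genotype had 2 libraries per assay, 8 in all, and each lysate was split, with 1/5 used for RNA-seq and 4/5 for Ribo-seq. The labels do not say whether the libraries came from separate mice, and p-values then measure only the spread between these libraries.

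Every collagen chain contains a long stretch in which glycine recurs at a fixed interval, and 3 chains wind around each other into a helix in the endoplasmic reticulum after their prolines and lysines have been hydroxylated. Fibrillar collagens are secreted as procollagens, trimmed and crosslinked into the fibrils of the interstitial matrix, which fibroblasts and adipocyte progenitors are known to make in fat. Type IV collagen forms instead a sheet-like network in the basement membrane that surrounds each adipocyte, capillary and nerve sheath, and type VI collagen forms beaded filaments between the basement membrane and the fibrils, where it is abundant in adipose tissue.

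Library depth was 12211351 and 16429015 reads for Y1cKO and 3958284 and 4963613 reads for Y1CTL in RNA-seq, so the Y1cKO RNA-seq libraries were the deeper ones. In Ribo-seq it was 9511334 and 9035419 reads for Y1cKO and 11862838 and 7364523 reads for Y1CTL. Ythdf1 itself was at 7.17 and 7.98 RPKM, reads scaled to gene length and library depth, in Y1cKO and 8.01 and 11.5 RPKM in Y1CTL RNA-seq. In Ribo-seq it was at 12.7 and 15.7 RPKM in Y1cKO and 17.3 and 15.99 RPKM in Y1CTL. These values take in exons other than the floxed one and cells without Cre, so they check the labels only in part. Adipocyte markers were high in every library, with a median of 312.7 to 704.2 RPKM over 10 genes in RNA-seq. The 19 lymphocyte and lymph node markers found summed to 4.11 and 3.603 RPKM in Y1cKO against 3.93 and 342.9 RPKM in Y1CTL RNA-seq, so that Y1CTL replicate 2 stood apart. The 16 skeletal muscle markers summed to 345.6 and 47.3 RPKM in Y1cKO against 32.7 and 22.3 RPKM in Y1CTL RNA-seq, so that Y1cKO replicate 1 stood apart. In Ribo-seq these markers summed to between 967.5 and 1237 RPKM (lymphocyte) and between 73.4 and 89.5 RPKM (muscle) in the 4 libraries. Myl1 made up most of the muscle sums in Ribo-seq, at 72.3 and 78.1 RPKM in Y1cKO and 67.7 and 64.5 RPKM in Y1CTL. It was at 56.3 and 44.2 RPKM in Y1cKO and 32.2 and 19.9 RPKM in Y1CTL RNA-seq. The median muscle marker in Ribo-seq was at 0.06 to 0.31 RPKM, so the Ribo-seq sums say little about muscle content.

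The bases before the start sites of 3 fibrillar genes are shown because these genes carry the main contrasts described here. Col1a2 and Col3a1 encode chains of types I and III, whose levels moved together between libraries, and Col5a3 encodes a type V chain that did not follow them in Y1cKO. RefSeq promoters (GRCm38.p6) matched 33 of the 42 genes, with 35 start sites. Each line gives the 150 bases before the start on the coding strand, in lower case, with the letters CCAAT, or ATTGG on the other strand, in capitals. Col1a2 lies on chromosome 6 (chr6:4505468-4505617, plus strand), Col3a1 on chromosome 1 (chr1:45311388-45311537, plus strand) and Col5a3 on chromosome 9 (chr9:20815068-20815217, minus strand).
Col1a2: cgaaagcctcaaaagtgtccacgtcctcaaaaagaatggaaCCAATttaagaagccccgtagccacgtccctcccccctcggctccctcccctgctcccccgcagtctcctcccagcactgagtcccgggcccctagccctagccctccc
Col3a1: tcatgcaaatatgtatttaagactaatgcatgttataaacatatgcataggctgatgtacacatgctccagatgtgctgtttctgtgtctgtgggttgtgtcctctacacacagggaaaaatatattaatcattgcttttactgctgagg
Col5a3: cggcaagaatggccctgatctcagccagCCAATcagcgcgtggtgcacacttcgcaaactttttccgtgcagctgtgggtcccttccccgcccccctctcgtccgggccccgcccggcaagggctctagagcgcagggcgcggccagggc
CCAAT began 109 bases before the start of Col1a2 and 122 bases before that of Col5a3, and neither orientation of it occurred before Col3a1. Over the 250 bases before the start, CCAAT on either strand was found at 11 of 35 collagen starts (31.4%) and at 33.8% of the 32851 starts in the table. TATAAA on either strand was found at 14.3% of collagen starts, Col3a1 among them, against 12.4% of all. GGGCGG on either strand, which can share at most 2 bases with CCAAT and none with TATAAA, was found at 60.0% of collagen starts, Col1a2 and Col5a3 among them, against 32.7% of all. A match is a description of these letters and not of a bound site. Col4a1 and Col4a2 lie head to head in this annotation, with transcripts that overlap by 22 bases at their starts.

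Collagen mRNA and ribosome footprints were dominated by a few chains. In RNA-seq 26 of the 42 genes reached a mean of 0.5 RPKM over the 4 libraries, 13 reached 10 RPKM and 5 reached 100 RPKM. In Ribo-seq 25 genes reached 0.5 RPKM, 14 reached 10 RPKM and 8 reached 100 RPKM. The highest mean in both assays was that of Col3a1, at 234.1 RPKM in RNA-seq and 510.8 RPKM in Ribo-seq, the 99.2 and 98.1 percentile of all genes. By the mean, Col4a1 and Col4a2 held the next places in RNA-seq, whereas Col1a2 and Col1a1 held them in Ribo-seq. In RNA-seq the first place of Col3a1 came from Y1cKO replicate 1, at 521.8 RPKM against 252.7 RPKM for Col4a1. Col4a1 was the higher of the pair in Y1cKO replicate 2, at 201.8 against 184.2 RPKM. It was also higher in Y1CTL, at 173.9 and 108.8 RPKM against 141.8 and 88.7 RPKM. RPKM is a level per length, taken over the transcript in RNA-seq and over the coding sequence in Ribo-seq.

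**Figure D1:**
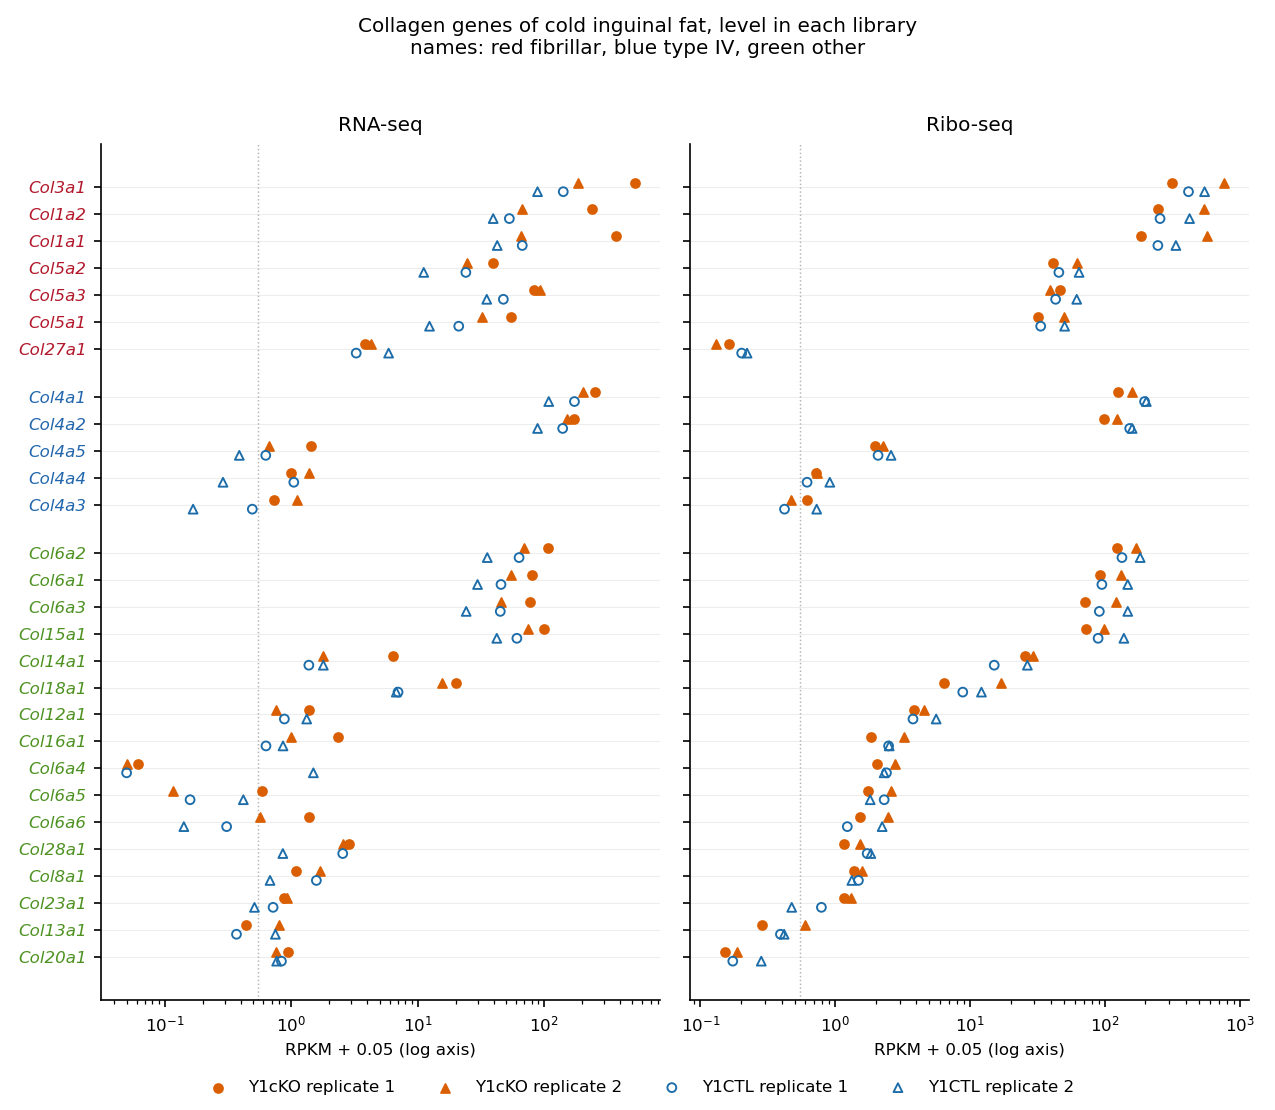
RPKM of each collagen gene tested in at least 1 assay, in every library, with 0.05 added for the log axis. Filled orange symbols are Y1cKO and open blue symbols Y1CTL, circles are replicate 1 and triangles replicate 2, and the dotted line marks 0.5 RPKM; in RNA-seq the Y1cKO symbols lie to the right for 18 of 26 genes, and in Ribo-seq only Col23a1 has both Y1cKO libraries above both Y1CTL libraries among the 25 genes tested.

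The mRNA of most collagen genes was higher in Y1cKO iWAT, while their ribosome footprints were not. Among the 26 genes tested in RNA-seq, 24 had a higher mean in Y1cKO and 2 a lower one, and the median difference was 0.80 on the log2 scale against 0.17 for all genes tested. Some low genes passed the level filter only through Y1cKO. Without the filter 36 of 42 were higher and 6 lower, with a median of 0.42 against 0.12 for all genes. Among the 25 genes tested in Ribo-seq, 10 were higher and 15 lower, and the median difference was −0.04 against 0.01 for all genes. The ratio of footprints to mRNA, called translational efficiency (TE), was lower in Y1cKO for 22 of 23 genes, with a median of −0.99 against −0.17 for all genes. Without the filter 4 were higher and 36 lower in TE, with a median of −0.48 against −0.14 for all genes. The lymphocyte markers given above were higher in every Ribo-seq library than in any RNA-seq library, and their part in TE was not tested. The Ribo-seq and TE splits moved with single libraries. Without Y1cKO replicate 1 the Ribo-seq split was 16 higher and 8 lower (median 0.17), and without Y1cKO replicate 2 it was 3 higher and 22 lower (median −0.35). In TE, 6 were higher and 15 lower without Y1cKO replicate 1 (median −0.40), 3 higher and 19 lower without Y1CTL replicate 2 (median −0.39), and 1 higher and 22 lower without Y1CTL replicate 1 (median −1.56). Without Y1cKO replicate 2 the TE median was −1.53. With all libraries, Col23a1 was the exception, at 0.31 ± 0.43 (SE). No gene of any kind passed an adjusted p of 0.05 (limma, Benjamini-Hochberg) in RNA-seq, Ribo-seq or TE, a background of 0% in each. At an unadjusted p under 0.05, 1468 genes of all kinds differed in RNA-seq, 347 in Ribo-seq and 1021 in TE.

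At that unadjusted threshold 7 collagen genes of 26 were higher in Y1cKO RNA-seq, where 10% of all genes were, and none was lower, where 1.79% of all genes were. In Ribo-seq 2 of 25 were lower, where 1.13% of all genes were, and none was higher, where 1.62% were. In TE 5 of 23 were lower, where 7.12% of all genes were, and none was higher, where 1.53% were. This TE fit did not pair the RNA-seq and Ribo-seq libraries of a lysate. With pairs by the labels 3 of 23 passed, beside 595 of 11792 genes. With the Y1cKO pairs crossed, a choice made after seeing the data, 9 passed, beside 811 of all genes. Both Y1cKO libraries lay above both Y1CTL libraries for 18 of 26 collagen genes in RNA-seq, as they did for 36.9% of all genes, and below them for none, against 10.7% of all genes. In Ribo-seq both Y1cKO libraries lay above both Y1CTL libraries for 1 of 25 genes, against 15.4% of all genes, and below them for 3, against 14.1%. Scaling the libraries of each assay to the same median moved the median of all genes in RNA-seq to 0.01 and that of the collagen genes to 0.63, with 22 genes higher and 4 lower, and the TE median to −0.84, with 2 genes higher and 21 lower. The RNA-seq differences were larger with Y1CTL replicate 1 left out, where the collagen median was 1.14, and smaller with Y1CTL replicate 2 left out, where it was 0.45.

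**Figure D2:**
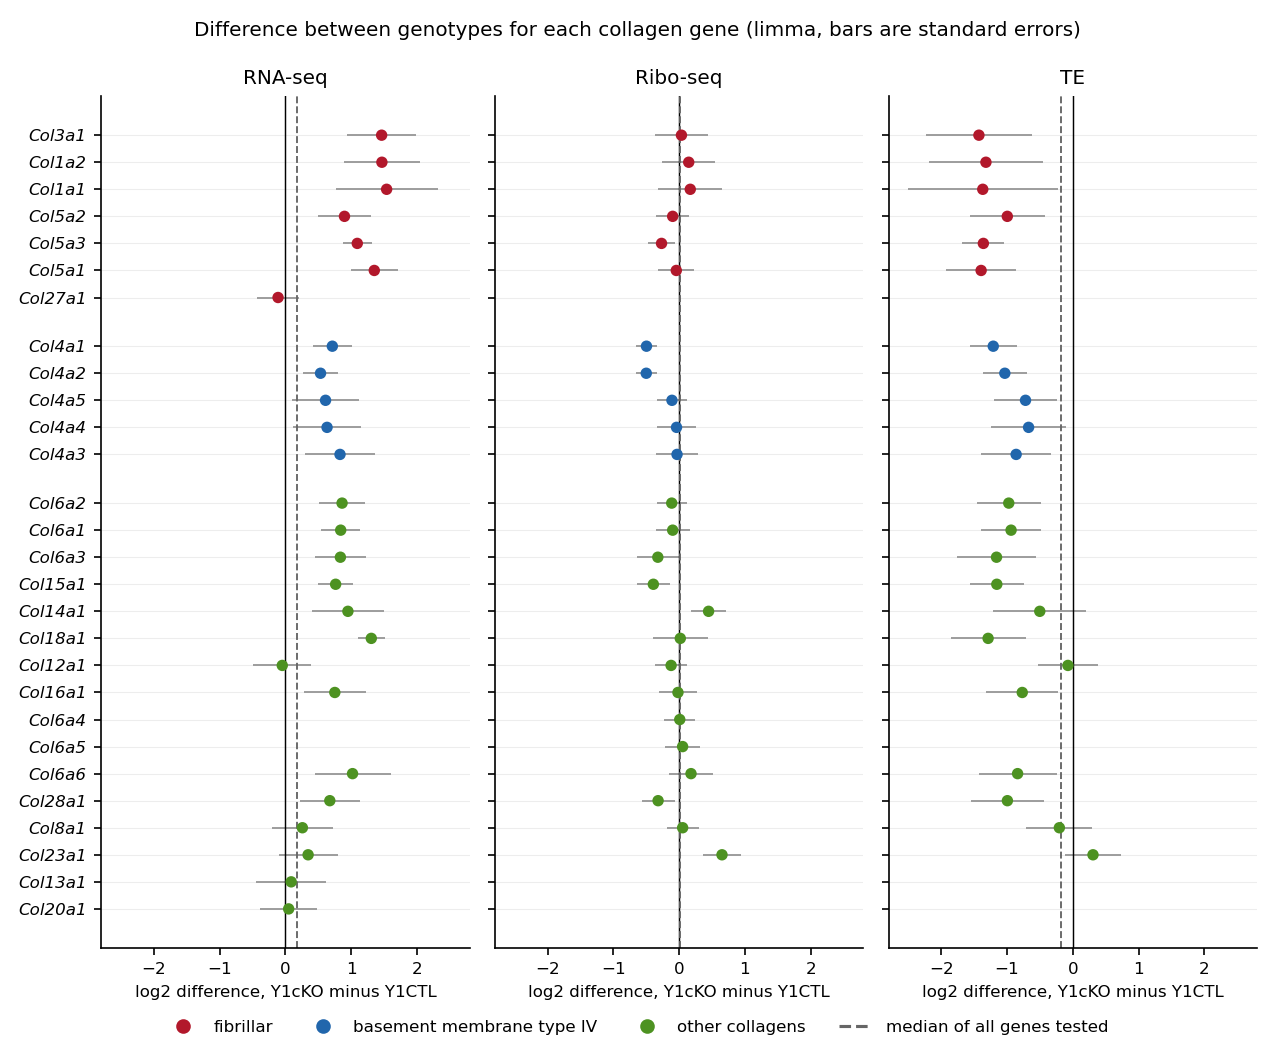
Difference between genotypes on the log2(RPKM + 0.5) scale, Y1cKO minus Y1CTL, for each collagen gene in RNA-seq, in Ribo-seq and in TE, with standard errors from limma. The solid line is 0 and the dashed line the median of all genes tested; points lie right of 0 for 24 of 26 genes in RNA-seq and left of 0 for 22 of 23 genes in TE, while the Ribo-seq points fall on both sides.

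The RNA-seq result moved together with markers of several cell types. The 12 fibroblast and progenitor markers summed to 485.9 and 335.8 RPKM in Y1cKO and 264.2 and 191.5 RPKM in Y1CTL RNA-seq, and none was at 0. The 10 adipocyte markers summed to 17812 and 18075 RPKM in Y1cKO and 14410 and 9667 RPKM in Y1CTL. The 8 Schwann cell markers summed to 216.7 and 145.7 RPKM in Y1cKO and 96.7 and 55.6 RPKM in Y1CTL. Median differences in RNA-seq were 0.80 for the fibroblast, 0.55 for the adipocyte, 0.48 for the endothelial, 0.42 for the mural, 1.31 for the Schwann cell and 0.24 for the macrophage markers on the log2 scale. The skeletal muscle markers had a median difference of 2.51, and 13 of the 16 were at 0 reads in Y1CTL replicate 1. Their median level was 19.2 and 0.06 RPKM in Y1cKO and 0 in both Y1CTL libraries. The lymphocyte markers ran the other way, at −2.21, and 11 of the 19 were at 0 in Y1CTL replicate 1. Their median level was 0.19 and 0.13 RPKM in Y1cKO and 0 and 14.4 RPKM in Y1CTL. Each of these differences thus rests on a single library, through which most of the genes passed the level filter. In Ribo-seq the fibroblast markers summed to 1611 and 1604 RPKM in Y1cKO and 1151 and 2107 RPKM in Y1CTL, with a median difference of 0.12. The 8 epithelial markers summed to at most 6.47 RPKM in any library, and the 6 cartilage and tendon markers found to at most 2.35 RPKM. The part of cell makeup, depth or these libraries in the collagen result was not tested. In a bulk sample, fewer cells of a type and less RNA per cell cannot be told apart.

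With all libraries, the fibrillar chains had the largest median mRNA difference of the 3 classes. Of 11 genes 7 passed the level filter in RNA-seq, 6 of them higher in Y1cKO, with a median of 1.35 on the log2 scale. With each library left out, this median ran from 0.56 to 1.73. The ranges of type IV (0.38 to 1.05) and other collagens (0.45 to 1.12) overlapped it. The 6 tested in Ribo-seq were split, with 3 higher and 3 lower and a median of −0.00, and all 6 were lower in TE, with a median of −1.36. These values were carried by the major chains of types I, III and V.

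Type I collagen, made of Col1a1 and Col1a2 chains, is the main component of interstitial fibrils. Col1a1 was at 370.5 and 65.8 RPKM in Y1cKO and 67.2 and 42.6 RPKM in Y1CTL RNA-seq. The genotypes overlapped, and Y1cKO replicate 1 alone was high, with replicate 2 at 0.178 times its level. In Ribo-seq Col1a1 was at 185.0 and 567.6 RPKM in Y1cKO and 247.1 and 336.1 RPKM in Y1CTL, where the Y1cKO libraries lay on either side of both Y1CTL libraries. The differences for Col1a1 were 1.54 ± 0.78 (SE, unadjusted p = 0.097, adjusted p = 0.478 by limma) in RNA-seq and 0.17 ± 0.49 in Ribo-seq.

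Col1a2 was at 240.7 and 67.5 RPKM in Y1cKO and 53.1 and 39.6 RPKM in Y1CTL RNA-seq. Both Y1cKO libraries were above both Y1CTL libraries, and most of the distance came from replicate 1. In Ribo-seq it was at 247.5 and 538.6 RPKM in Y1cKO and 256.4 and 424.5 RPKM in Y1CTL, with full overlap. The RNA-seq difference was 1.47 ± 0.58 (unadjusted p = 0.046, adjusted p = 0.418 by limma), and the TE difference was −1.32 ± 0.86.

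Col3a1 encodes the chain of type III collagen, which lies in the same fibrils as type I in soft tissue. It was at 521.8 and 184.2 RPKM in Y1cKO and 141.8 and 88.7 RPKM in Y1CTL RNA-seq, and at 314.3 and 763.8 RPKM in Y1cKO and 416.7 and 548.5 RPKM in Y1CTL Ribo-seq. Its mRNA was thus higher in both Y1cKO libraries, while its footprints in Y1cKO lay on either side of both Y1CTL values. The differences were 1.46 ± 0.52 in RNA-seq (unadjusted p = 0.0325, adjusted p = 0.404 by limma) and 0.04 ± 0.40 in Ribo-seq.

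The type V chains are minor parts of fibrils and are known to set their diameter. Col5a1 was at 54.96 and 32.1 RPKM in Y1cKO and 21.1 and 12.4 RPKM in Y1CTL RNA-seq, and at 31.8 and 49.5 RPKM in Y1cKO and 33.3 and 50.2 RPKM in Y1CTL Ribo-seq. Its footprints were therefore nearly alike in the genotypes, at −0.04 ± 0.27, while the mRNA difference was 1.35 ± 0.36 (unadjusted p = 0.0098, adjusted p = 0.402 by limma). Col5a2 was at 39.2 and 24.4 RPKM in Y1cKO and 24.0 and 11.1 RPKM in Y1CTL RNA-seq, and at 41.3 and 61.7 RPKM in Y1cKO and 45.5 and 64.3 RPKM in Y1CTL Ribo-seq. The genotypes barely separated in RNA-seq, where the difference was 0.90 ± 0.41.

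Col5a3, a type V chain of more restricted expression, differed between the Y1cKO replicates in another way than the other 5 fibrillar chains tested in both assays. It was at 83.0 and 92.9 RPKM in Y1cKO and 47.6 and 35.2 RPKM in Y1CTL RNA-seq, so that the genotypes were well apart and the Y1cKO libraries close together. In Ribo-seq it was at 46.6 and 39.2 RPKM in Y1cKO and 43.0 and 61.7 RPKM in Y1CTL, with overlap. The differences were 1.09 ± 0.22 in RNA-seq (unadjusted p = 0.00263, adjusted p = 0.401 by limma), −0.27 ± 0.20 in Ribo-seq and −1.36 ± 0.32 in TE (unadjusted p = 0.00332, adjusted p = 0.563). Leaving out Y1CTL replicate 1 leaves the library with the high lymphocyte markers as the only RNA-seq control. The Col5a3 difference was then 1.31 in RNA-seq and −1.83 in TE.

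Among the other fibrillar genes, Col27a1 had mRNA with few footprints. It was at 3.75 and 4.25 RPKM in Y1cKO and 3.22 and 5.85 RPKM in Y1CTL RNA-seq, from 97 to 532 reads a library, and its difference was −0.11 ± 0.32. In Ribo-seq it had 6 and 4 reads in Y1cKO and 10 and 7 reads in Y1CTL, or 0.08 to 0.17 RPKM, which was under the filter. Col2a1, the cartilage collagen, had at most 2 reads in any library of either assay. Col11a1, Col11a2 and Col24a1 were at most at 0.380 RPKM in any library.

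For basement membrane type IV, the Ribo-seq difference was below 0 for each of the 5 genes tested of 6 (median −0.11), though only Col4a1 and Col4a2 had no overlap between genotypes. The same 5 were above 0 in RNA-seq (median 0.63) and below 0 in TE (median −0.86). Of these, Col4a3 and Col4a5 passed the RNA-seq filter of 0.5 RPKM through Y1cKO, at means of 0.87 and 1.00 RPKM. In Y1CTL they were under it, at 0.28 and 0.46 RPKM, so the filter partly set these counts. With each library left out, the median ran from 0.38 to 1.05 in RNA-seq and from −0.25 to −0.18 in Ribo-seq, and the classes were not tested against each other. Col4a1 and Col4a2, which encode the chains of the trimer present in nearly every basement membrane, made up most of it.

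Col4a1 was at 125.3 and 159.9 RPKM in Y1cKO and 196.8 and 202.8 RPKM in Y1CTL Ribo-seq, and at 252.7 and 201.8 RPKM in Y1cKO and 173.9 and 108.8 RPKM in Y1CTL RNA-seq. Footprints were thus lower and mRNA higher in both Y1cKO libraries, with no overlap in either assay. The differences were −0.50 ± 0.17 in Ribo-seq (unadjusted p = 0.022, adjusted p = 1.00 by limma), 0.71 ± 0.29 in RNA-seq and −1.21 ± 0.36 in TE (unadjusted p = 0.0105, adjusted p = 0.563).

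Col4a2 was at 98.0 and 123.7 RPKM in Y1cKO and 152.6 and 159.1 RPKM in Y1CTL Ribo-seq, and at 171.3 and 152.9 RPKM in Y1cKO and 140.3 and 88.8 RPKM in Y1CTL RNA-seq. The genotypes again did not overlap in either assay. The differences were −0.50 ± 0.16 in Ribo-seq (unadjusted p = 0.019, adjusted p = 1.00 by limma), 0.53 ± 0.27 in RNA-seq and −1.03 ± 0.33 in TE (unadjusted p = 0.016, adjusted p = 0.563). Without Y1CTL replicate 1, replicate 2 with its high lymphocyte markers was the only RNA-seq control. The TE differences were then −1.57 for Col4a1 and −1.39 for Col4a2. Endothelial markers, whose cells rest on this membrane, had a median Ribo-seq difference of −0.20, with 9 of 10 lower in Y1cKO, and mural markers −0.10, with 7 of 9 lower; their part in the type IV values was not tested.

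The remaining type IV chains are known from the basement membranes of kidney, lung and other specialised tissues, and they were scarce in fat. Col4a5 was at 1.93 and 2.23 RPKM in Y1cKO and 2.03 and 2.54 RPKM in Y1CTL Ribo-seq, and at 1.38 and 0.62 RPKM in Y1cKO and 0.58 and 0.34 RPKM in Y1CTL RNA-seq. Col4a4 was at 0.67 and 0.68 RPKM in Y1cKO and 0.57 and 0.86 RPKM in Y1CTL Ribo-seq, and at 0.96 and 1.33 RPKM in Y1cKO and 1.00 and 0.24 RPKM in Y1CTL RNA-seq. Col4a3 was at 0.57 and 0.42 RPKM in Y1cKO and 0.37 and 0.68 RPKM in Y1CTL Ribo-seq, and at 0.68 and 1.06 RPKM in Y1cKO and 0.44 and 0.12 RPKM in Y1CTL RNA-seq. The Ribo-seq values of all 3 overlapped between genotypes. Col4a6 had at most 11 reads in any library.

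Of the 6 type VI genes, 4 were tested in RNA-seq and all 4 had a higher mean in Y1cKO, with a median of 0.85. The level filter partly set this count. Col6a6 passed it through Y1cKO, at a mean of 0.92 RPKM against 0.18 RPKM in Y1CTL. Col6a4, at 0.006 RPKM in Y1cKO against 0.72 RPKM in Y1CTL, did not pass. At an unadjusted p under 0.05, 1 of the 4 was higher, where 10% of all genes were. The same 4 were lower in TE, with a median of −0.96, while 3 of the 6 genes were higher and 3 lower in Ribo-seq. Col6a1, Col6a2 and Col6a3 encode the chains of the common type VI trimer.

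Col6a1 was at 80.6 and 54.6 RPKM in Y1cKO and 45.6 and 29.7 RPKM in Y1CTL RNA-seq, and at 92.7 and 131.9 RPKM in Y1cKO and 94.9 and 147.6 RPKM in Y1CTL Ribo-seq. Col6a2 was at 107.7 and 69.7 RPKM in Y1cKO and 63.4 and 35.5 RPKM in Y1CTL RNA-seq, and at 122.1 and 171.0 RPKM in Y1cKO and 133.7 and 182.6 RPKM in Y1CTL Ribo-seq. Col6a3 was at 77.5 and 45.4 RPKM in Y1cKO and 45.0 and 24.2 RPKM in Y1CTL RNA-seq, and at 70.9 and 120.6 RPKM in Y1cKO and 90.9 and 147.7 RPKM in Y1CTL Ribo-seq. All 3 were higher in both Y1cKO libraries in RNA-seq and overlapped in Ribo-seq, where replicate 2 was the higher library in each genotype. The RNA-seq differences were 0.84 ± 0.29 for Col6a1 (unadjusted p = 0.031, adjusted p = 0.402 by limma), 0.86 ± 0.35 for Col6a2 and 0.84 ± 0.38 for Col6a3, and the Ribo-seq differences were −0.10 ± 0.26, −0.11 ± 0.23 and −0.32 ± 0.32 in the same order.

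The other type VI chains were low. Col6a4 had 1 and 0 RNA-seq reads in Y1cKO and 0 and 53 in Y1CTL, where the 53 reads came from replicate 2, the library with the high lymphocyte markers. Its footprints were even, at 1.97 and 2.72 RPKM in Y1cKO and 2.35 and 2.25 RPKM in Y1CTL. Col6a5 was at 1.699 and 2.56 RPKM in Y1cKO and 2.26 and 1.77 RPKM in Y1CTL Ribo-seq, and its RNA-seq values of 0.54 and 0.07 RPKM in Y1cKO and 0.11 and 0.37 RPKM in Y1CTL were under the filter. Col6a6 was at 1.32 and 0.51 RPKM in Y1cKO and 0.26 and 0.09 RPKM in Y1CTL RNA-seq, and at 1.49 and 2.41 RPKM in Y1cKO and 1.18 and 2.18 RPKM in Y1CTL Ribo-seq, with separation in RNA-seq and overlap in Ribo-seq.

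The multiplexins, collagens of basement membrane zones whose C-terminal fragments restin and endostatin are known from blood vessel biology, had more mRNA in Y1cKO. Col15a1 was at 100.6 and 74.3 RPKM in Y1cKO and 60.9 and 42.2 RPKM in Y1CTL RNA-seq, and at 72.8 and 97.9 RPKM in Y1cKO and 89.0 and 138.2 RPKM in Y1CTL Ribo-seq. The genotypes separated in RNA-seq and overlapped in Ribo-seq. The differences were 0.76 ± 0.26 in RNA-seq (unadjusted p = 0.028, adjusted p = 0.402 by limma), −0.39 ± 0.25 in Ribo-seq and −1.16 ± 0.41 in TE (unadjusted p = 0.025, adjusted p = 0.563).

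Col18a1 was at 20.1 and 15.5 RPKM in Y1cKO and 6.95 and 6.73 RPKM in Y1CTL RNA-seq, the smallest unadjusted p of the family (1.31 ± 0.21, unadjusted p = 9.18e-04, adjusted p = 0.401 by limma). In Ribo-seq it was at 6.38 and 16.9 RPKM in Y1cKO and 8.77 and 12.1 RPKM in Y1CTL, so that the Y1cKO libraries lay on either side of both Y1CTL libraries (0.02 ± 0.42). With Y1CTL replicate 1 left out, Y1CTL replicate 2 was the only RNA-seq control. The RNA-seq difference was then 1.33 for Col18a1 and 1.72 for Col5a1, and the TE difference of Col15a1 was −1.73. No collagen gene passed an adjusted p of 0.05 (limma) in any alternative that kept all libraries.

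Among the fibril-associated collagens, Col14a1, which binds the surface of fibrils, had few mRNA reads and many footprints. It was at 6.34 and 1.74 RPKM in Y1cKO and 1.33 and 1.75 RPKM in Y1CTL RNA-seq, against 25.6 and 29.5 RPKM in Y1cKO and 15.0 and 26.6 RPKM in Y1CTL Ribo-seq. TE levels were compared among the 23 collagen genes that passed the filter in both assays, which leaves out Col27a1 with its few footprints. Col14a1 was the highest of these in both genotypes, 1.99 above the median gene on the log2 scale in Y1cKO and 2.32 above it in Y1CTL. The lowest of the 23 in Y1cKO was Col5a3, 1.88 below the median gene, and the lowest in Y1CTL was Col23a1, 1.01 below it. Relative to the median gene of 11792, 4 of 23 collagen genes were above it and 19 below it in Y1cKO, while 14 were above it and 9 below it in Y1CTL.

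The rest of the family was scarce, and its genes are given by range. Col12a1, Col16a1, Col28a1, Col8a1 and Col23a1 passed the filter in both assays, with means over the 4 libraries of 0.71 to 2.17 RPKM in RNA-seq and 0.88 to 4.40 RPKM in Ribo-seq. Col23a1, a transmembrane collagen, had 17 and 18 footprint reads in Y1cKO and 14 and 5 in Y1CTL, and Col28a1 had 36 and 46 in Y1cKO and 68 and 45 in Y1CTL. These were the low counts behind their separation in Ribo-seq. Col13a1 and Col20a1 passed it in RNA-seq alone, with differences of 0.09 ± 0.53 and 0.05 ± 0.43. In all, 16 genes in RNA-seq and 17 in Ribo-seq were under the filter, 5 and 10 of them with at most 10 reads over the 4 libraries. Col9a2 and Col9a3 had 0 Ribo-seq reads in every library, and a count of 0 allows up to 3 reads by counting error.

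The replicates of a genotype differed more in the collagen genes than in the median gene. In Y1cKO the median absolute difference between replicates was 0.53 for the collagen genes and 0.21 for all genes in RNA-seq, and 0.43 and 0.18 in Ribo-seq, on the log2 scale. In Y1CTL it was 0.61 for the collagen genes and 0.36 for all genes in RNA-seq, and 0.44 and 0.23 in Ribo-seq. For Col1a1 in Y1cKO, replicate 2 minus replicate 1 was −2.48 in RNA-seq, a larger absolute difference than in 99.8% of genes, and 1.61 in Ribo-seq, larger than in 99.8%. For Col3a1 it was −1.50 and 1.28, and for Col1a2 −1.83 and 1.12. Of the 23 genes tested in both assays, 18 were lower in RNA-seq and higher in Ribo-seq in Y1cKO replicate 2 than in Y1cKO replicate 1, and 18 were so in the Y1CTL pair. Col5a3 and Col4a3 ran the other way in Y1cKO, at 0.16 and 0.40 in RNA-seq and −0.25 and −0.21 in Ribo-seq. These directions follow the numbers in the labels, while the column headers of the Y1cKO RNA-seq tables carry the other number. By the headers, which were tried after seeing the data, 20 of the 23 genes ran in the same direction in both assays in Y1cKO, Col1a1 at 2.48 and 1.61 among them, and 3 ran in opposite directions. Which RNA-seq and Ribo-seq libraries share a lysate was therefore not settled. Under either numbering the assays differed in the lymphocyte markers. In Y1cKO these summed to 4.11 and 3.603 RPKM in RNA-seq against 1155 and 1237 RPKM in Ribo-seq. In Y1CTL they summed to 3.93 and 342.9 RPKM in RNA-seq against 1101 and 967.5 RPKM in Ribo-seq. TE sets the 2 assays against each other, and the part of this difference in the TE values was not tested.

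**Figure D3:**
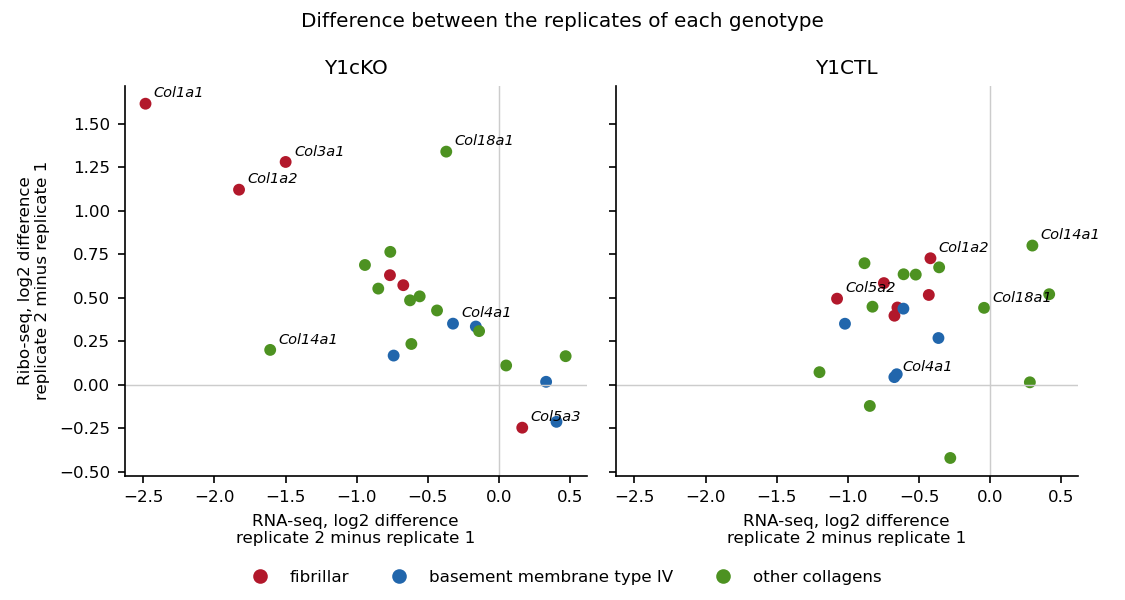
Difference between the replicates of a genotype, replicate 2 minus replicate 1 by the numbers in the labels, on the log2(RPKM + 0.5) scale, in RNA-seq (horizontal axis) and Ribo-seq (vertical axis), with a point for each of 23 collagen genes. In Y1cKO, on the left, Col1a1 lies at −2.48 and 1.61 and the types I and III chains stand apart at the upper left; in Y1CTL, on the right, no gene is beyond 1.20 in RNA-seq or 0.80 in Ribo-seq.

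Reads on collagen genes were 1.27% and 0.660% of all gene reads in Y1cKO and 0.545% and 0.349% in Y1CTL RNA-seq. In Ribo-seq they were 0.675% and 1.29% in Y1cKO and 0.839% and 1.15% in Y1CTL. Both Y1cKO shares were above both Y1CTL shares in RNA-seq, while in Ribo-seq the Y1cKO shares were the lowest and the highest of the 4. The 95% Wilson intervals were narrow, from 0.656% to 0.664% in Y1cKO RNA-seq replicate 2 and from 0.538% to 0.552% in Y1CTL RNA-seq replicate 1, for example, and cover counting error only. With 2 libraries a group, no exact test could pass 0.05, and none was run.

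Fibrillar chains took 0.765% and 0.281% of reads in Y1cKO and 0.213% and 0.140% in Y1CTL RNA-seq, and 0.381% and 0.880% in Y1cKO and 0.458% and 0.651% in Y1CTL Ribo-seq. Type IV chains took 0.280% and 0.235% in Y1cKO and 0.207% and 0.130% in Y1CTL RNA-seq, and 0.115% and 0.145% in Y1cKO and 0.178% and 0.185% in Y1CTL Ribo-seq. Type IV was therefore higher in RNA-seq and lower in Ribo-seq in both Y1cKO libraries, whereas the fibrillar share separated only in RNA-seq. Other collagens took 0.220% and 0.144% in Y1cKO and 0.125% and 0.0797% in Y1CTL RNA-seq, and 0.180% and 0.268% in Y1cKO and 0.203% and 0.310% in Y1CTL Ribo-seq.

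**Figure D4:**
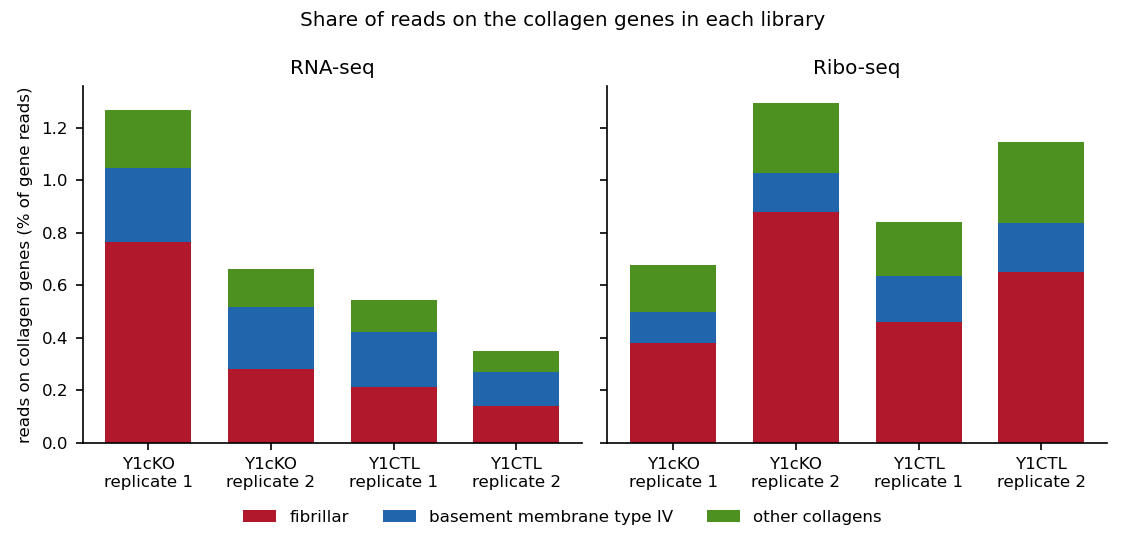
Share of all gene reads on fibrillar (red), basement membrane type IV (blue) and other (green) collagens in each of the 4 RNA-seq and 4 Ribo-seq libraries. The tallest RNA-seq bar is that of Y1cKO replicate 1, at 1.27%, and the 2 Y1cKO bars in Ribo-seq, at 0.675% and 1.29%, are the shortest and the tallest of their assay.

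Within the collagen reads, the chains of types I and III made up 50.5% and 26.9% in Y1cKO and 27.0% and 27.4% in Y1CTL RNA-seq. In Ribo-seq they made up 47.5% and 62.2% in Y1cKO and 47.2% and 49.04% in Y1CTL. All 4 Ribo-seq libraries thus gave a larger part to types I and III than 3 of the 4 RNA-seq libraries, the exception being Y1cKO replicate 1. The summed RPKM of types I and III was 2.67 and 0.895 times that of Col4a1 and Col4a2 in Y1cKO and 0.834 and 0.865 times in Y1CTL RNA-seq, and 3.34 and 6.60 times in Y1cKO and 2.63 and 3.62 times in Y1CTL Ribo-seq. In Ribo-seq the lowest of these ratios was that of Y1CTL replicate 1, and the genotypes overlapped.

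The ratio of footprints between partner chains was nearly constant for type IV. Col4a1 over Col4a2 was 1.28 and 1.29 in Y1cKO and 1.29 and 1.27 in Y1CTL Ribo-seq, while in RNA-seq it was 1.48 and 1.32 in Y1cKO and 1.24 and 1.23 in Y1CTL. The highest Ribo-seq ratio was 1.01 times the lowest, against 1.20 times in RNA-seq, where both Y1cKO ratios were the higher ones. Col5a1 over Col5a2 was 0.770 and 0.803 in Y1cKO and 0.733 and 0.781 in Y1CTL Ribo-seq, and 1.40 and 1.31 in Y1cKO and 0.878 and 1.11 in Y1CTL RNA-seq. Here too the RNA-seq ratios were apart between genotypes and the Ribo-seq ratios overlapped.

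Col6a1 over Col6a2 was 0.759 and 0.771 in Y1cKO and 0.710 and 0.808 in Y1CTL Ribo-seq, and 0.748 and 0.784 in Y1cKO and 0.719 and 0.837 in Y1CTL RNA-seq, so that it was alike in both assays. Col6a3 over Col6a1 was 0.765 and 0.914 in Y1cKO and 0.957 and 1.00 in Y1CTL Ribo-seq, the only ratio of footprints of the 5 that was lower in both Y1cKO libraries. In RNA-seq it was 0.961 and 0.832 in Y1cKO and 0.987 and 0.813 in Y1CTL. In Ribo-seq the widest of the 5 ratios was Col1a1 over Col1a2, at 0.748 and 1.05 in Y1cKO and 0.964 and 0.792 in Y1CTL, the highest 1.41 times the lowest. In RNA-seq it was at 1.54 and 0.975 in Y1cKO and 1.27 and 1.08 in Y1CTL, the highest 1.58 times the lowest, beside 1.60 times for Col5a1 over Col5a2.

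**Figure D5:**
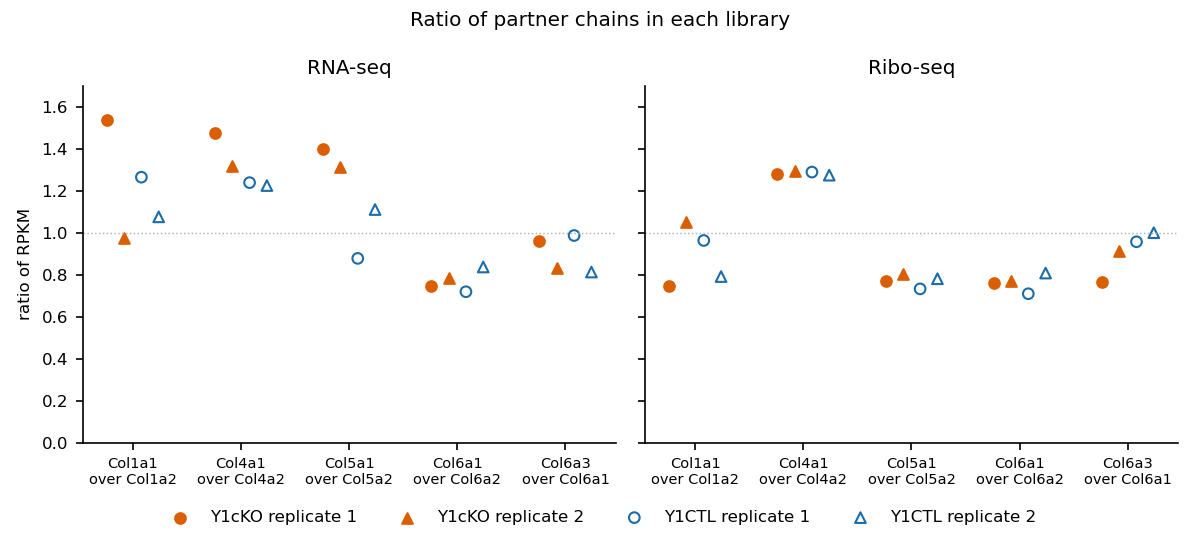
Ratio of the RPKM of partner chains in each library, in RNA-seq on the left and Ribo-seq on the right, with filled orange symbols for Y1cKO and open blue symbols for Y1CTL. Col4a1 over Col4a2 lies between 1.27 and 1.29 in the 4 Ribo-seq libraries, and Col1a1 over Col1a2 spreads from 0.975 to 1.54 in RNA-seq.

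Genes that make, process and bind collagen were counted from lists written by hand from general knowledge. Of 20 genes of collagen synthesis in the endoplasmic reticulum, 19 were tested in each comparison. In RNA-seq 15 were higher and 4 lower (median 0.42), in Ribo-seq 6 higher and 13 lower (median −0.06) and in TE 2 higher and 17 lower (median −0.48), beside medians of 0.17, 0.01 and −0.17 for all genes. At an unadjusted p under 0.05, 4 were higher and 1 lower in RNA-seq, where 10% and 1.79% of all genes were, none differed in Ribo-seq, and 1 was higher and 2 lower in TE, where 1.53% and 7.12% of all genes were.

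Serpinh1, the collagen chaperone HSP47, was at 399.9 and 529.5 RPKM in Y1cKO and 563.7 and 648.3 RPKM in Y1CTL Ribo-seq, lower in both Y1cKO libraries (−0.39 ± 0.20, unadjusted p = 0.090, adjusted p = 1.00 by limma), and its RNA-seq difference was 0.07 ± 0.38. P4ha1, the catalytic subunit of a prolyl 4-hydroxylase, was at 36.2 and 51.8 RPKM in Y1cKO and 56.2 and 46.6 RPKM in Y1CTL Ribo-seq, with overlap. The shared subunit P4hb had a Ribo-seq difference of −0.08 ± 0.19. The lysyl hydroxylase genes Plod1 and Plod2 had Ribo-seq differences of −0.16 ± 0.16 and −0.46 ± 0.43, and P3h3 one of 0.24 ± 0.21. Tmem38b, which encodes a cation channel of the endoplasmic reticulum, was at 28.1 and 12.9 RPKM in Y1cKO and 265.5 and 453.7 RPKM in Y1CTL RNA-seq. Its footprints did not follow, at 25.6 and 25.8 RPKM in Y1cKO and 25.1 and 14.9 RPKM in Y1CTL. The RNA-seq difference of Tmem38b was −4.15 ± 0.43 (unadjusted p = 9.1e-05, adjusted p = 0.401 by limma).

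Of 14 genes of procollagen processing and crosslinking, 11 were tested and all 11 were higher in RNA-seq (median 0.74), 8 were higher and 5 lower in Ribo-seq (median 0.06) and all 11 tested were lower in TE (median −0.68). Lox, which oxidises lysines for crosslinking, was at 79.0 and 72.4 RPKM in Y1cKO and 69.6 and 68.5 RPKM in Y1CTL Ribo-seq, and at 21.8 and 24.7 RPKM in Y1cKO and 19.4 and 12.5 RPKM in Y1CTL RNA-seq. It was higher in both Y1cKO libraries in both assays, by 0.13 ± 0.13 and 0.56 ± 0.25. Tgm2, a transglutaminase, was at 95.2 and 101.0 RPKM in Y1cKO and 116.5 and 122.2 RPKM in Y1CTL Ribo-seq, with a TE difference of −0.92 ± 0.20 (unadjusted p = 0.00218, adjusted p = 0.563 by limma). Loxl4 and Pcolce2 had Ribo-seq differences of 0.50 ± 0.28 and 0.35 ± 0.29.

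Of 16 genes of collagen breakdown and its inhibitors, 13 were tested and all 13 were higher in RNA-seq (median 1.03), 8 of them at an unadjusted p under 0.05, where 10% of all genes were, and all 13 were lower in TE (median −0.79), while 7 were higher and 8 lower in Ribo-seq. The medians of all genes were 0.17 in RNA-seq and −0.17 in TE. Timp4, an inhibitor of metalloproteinases, was at 50.8 and 25.5 RPKM in Y1cKO and 16.3 and 20.2 RPKM in Y1CTL Ribo-seq (0.97 ± 0.32, unadjusted p = 0.020, adjusted p = 1.00 by limma), and at 9.42 and 12.7 RPKM in Y1cKO and 6.21 and 3.34 RPKM in Y1CTL RNA-seq. It was higher in Y1cKO in both assays, unlike the type IV chains. Timp1, Mmp19 and Timp2 had Ribo-seq differences of 0.53 ± 0.43, −0.20 ± 0.18 and 0.28 ± 0.30.

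The non-collagen partners of type IV in the basement membrane had medians of the same sign as type IV itself. Of 16 genes 14 were tested in RNA-seq, 12 higher and 2 lower (median 0.57), 14 in Ribo-seq, 3 higher and 11 lower (median −0.12), and all 13 tested in TE were lower (median −0.80). Nid2, a nidogen that links laminin to type IV collagen, was at 17.9 and 22.2 RPKM in Y1cKO and 24.5 and 30.6 RPKM in Y1CTL Ribo-seq (−0.45 ± 0.18, unadjusted p = 0.045, adjusted p = 1.00 by limma). Hspg2, which encodes perlecan, was at 65.3 and 83.2 RPKM in Y1cKO and 90.6 and 89.0 RPKM in Y1CTL Ribo-seq, with a difference of −0.28 ± 0.16. Both genes were lower in both Y1cKO libraries, with no overlap. Lamb3 and Agrn had Ribo-seq differences of −0.41 ± 0.26 and −0.25 ± 0.22. Sparc, which binds type IV and fibrillar collagens, was at 1873 and 2619 RPKM in Y1cKO and 2351 and 2486 RPKM in Y1CTL Ribo-seq, with overlap.

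Of 8 collagen receptor genes 7 were tested in RNA-seq, 6 higher and 1 lower (median 0.58), and 7 in Ribo-seq, 3 higher and 4 lower (median −0.03). The receptors Itga11, Ddr1, Itga1 and Ddr2 had Ribo-seq differences of 0.50 ± 0.33, 0.20 ± 0.20, −0.17 ± 0.25 and 0.13 ± 0.23. Of 9 small leucine-rich proteoglycans, which coat fibrils, 8 were tested, with 6 higher and 2 lower in RNA-seq (median 0.46) and 5 higher and 3 lower in Ribo-seq (median 0.09). Prelp was at 253.4 and 217.0 RPKM in Y1cKO and 168.8 and 189.1 RPKM in Y1CTL Ribo-seq, higher in both Y1cKO libraries (0.39 ± 0.15, unadjusted p = 0.042, adjusted p = 1.00 by limma). Dcn, Fmod and Omd had Ribo-seq differences of 0.23 ± 0.26, 0.12 ± 0.13 and 0.30 ± 0.37.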

How the data were processed

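Adaptors had been trimmed and low-complexity or low-quality sequence masked before the reads were mapped with HISAT2 2.2.1 to mm8, and the authors deposited a table of RPKM values per library. The notes of the submitters name DESeq2 as well, without saying what for. Counter, annotation and strandedness: not given in the sources used here. Overlapping or antisense genes therefore could not be told apart. The deposited RPKM divided RNA-seq reads by transcript length and Ribo-seq reads by coding length, since 100% of values came out as whole reads within 0.01 read, and depth was computed from these reads. RPKM moves with the other genes of a library.

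Values were set to log2(RPKM + 0.5), so that fold changes of low genes are understated. Genes whose mean reached 0.5 RPKM were tested with limma 3.58.1 (R 4.3.3, intensity trend) within each assay. TE was the interaction of assay and genotype over 8 libraries, without a block. Adjustment was by Benjamini-Hochberg over all genes tested. The t-test or Mann-Whitney test of the study was not used with 2 libraries a group. The fits were tested on simulated data in which all genes varied alike between libraries, apart from counting error. Collagen genes differed more between replicates than the median gene. The simulation therefore does not show which differences the fits can detect among them. The collagen genes and lists were chosen with earlier results of these data known. Values per library are given for types I, III, IV, V and VI and the multiplexins, the 10 highest genes of each assay and those with an unadjusted p under 0.05, and, from the other lists, for up to 4 genes with the smallest Ribo-seq p and for genes with a known role in making collagen. Col27a1, Col14a1, Col23a1 and Col28a1 were added after their values were seen. Alternatives were the pseudocount, filter, scaling, trend, voom on the reads, a replicate block and each library left out. Shares and ratios had no test.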

Additional observations from a re-analysis of the deposited data

How the results depend on the processing

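The counts of genes called stayed at 0 in RNA-seq, Ribo-seq and TE under every alternative except leaving out a library, where they ran from 0 to 665 in RNA-seq, 0 to 51 in Ribo-seq and 0 to 963 in TE, the highest each time without Y1CTL replicate 1. Without Y1CTL replicate 2 the counts were 52 in RNA-seq and 19 in Ribo-seq. With 1 library left in a genotype, that library is assumed to vary like the others. With the replicate block the counts were 0, 0 and 0. The block is balanced over the genotypes, so it could not change a median. At an unadjusted p under 0.05 it gave 13 collagen genes in RNA-seq, 3 in Ribo-seq and 3 in TE, against 7, 2 and 5 without it. Of all genes 1660, 381 and 595 passed with the block, against 1468, 347 and 1021 without it. RNA-seq and Ribo-seq libraries of the same number deviated in opposite directions over all genes (correlation −0.24 in Y1cKO and −0.14 in Y1CTL), so the numbers were not taken as pairs. A crossed pairing of the Y1cKO libraries in the TE block, chosen after seeing the data, also gave 0 calls. There 9 collagen genes and 811 of all genes were at an unadjusted p under 0.05.

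On the log2 scale, the RNA-seq median was 0.42 over all collagens, 0.90 over fibrillar and 0.26 over other collagens without the level filter, and the Ribo-seq median of type IV was −0.50 with a filter of 5 RPKM, which leaves Col4a1 and Col4a2. With each library left out, RNA-seq medians ran from 0.45 to 1.14 (all), 0.56 to 1.73 (fibrillar), 0.38 to 1.05 (type IV) and 0.45 to 1.12 (other). Ribo-seq medians ran from −0.35 to 0.17 (all), −0.40 to 0.47 (fibrillar), −0.25 to −0.18 (type IV) and −0.30 to 0.18 (other), and TE medians from −1.56 to −0.39 (all), −2.44 to −0.21 (fibrillar), −1.38 to −0.54 (type IV) and −1.50 to −0.33 (other). Single genes changed sign there. In Ribo-seq Col1a1 ran from −0.64 to 0.98, Col1a2 from −0.41 to 0.71, Col3a1 from −0.60 to 0.68, Col5a1 from −0.36 to 0.27, Col5a2 from −0.38 to 0.19, Col6a1 from −0.41 to 0.22, Col6a2 from −0.35 to 0.13, Col6a3 from −0.71 to 0.058 and Col18a1 from −0.65 to 0.69. In TE Col1a1 ran from −3.42 to 0.68, Col1a2 from −2.79 to 0.15 and Col14a1 from −1.41 to 0.40, positive without Y1cKO replicate 1. Beside the main values, 474 values of named genes and 221 of counts, medians, shares and ratios kept their direction and side of the threshold or stayed within the replicate spread. Part of this was fixed in advance, since dropping the trend or adding the block leaves every log2 difference as it was. By contrast, 21 values of named genes changed sign and 22 counts, medians, shares and ratios moved. Values of named genes passed the adjusted threshold only without Y1CTL replicate 1. The cause was not tested.

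The lower RNA-seq depth of Y1CTL left genes such as Col4a3 (15 and 5 reads) and Col6a6 (9 and 4 reads) with few reads there.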
